A study of Mus musculus with 135 samples.

Results

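The transcripts of 6 red cell membrane genes, Slc4a1, Epb42, Ermap, Rhag, Rhd and Kel, were followed in the cerebral cortex and the hippocampus of Townes sickle cell mice. The genes were taken by symbol from both tables of read counts, where each has 1 entry among 55416 genes. All mice were male Townes mice, in which human globin genes replace those of the mouse, with normal human hemoglobin in AA mice and sickle hemoglobin in SS mice, and the study's methods give an age of 6 months for the mice exposed to repeat social defeat (RSD), in which an aggressor was placed daily in the home cage. Groups were AA and SS mice without RSD or drug, AA + RSD and SS + RSD mice, AA + minocycline and SS + minocycline mice, which drank the antibiotic minocycline, and AA + RSD + minocycline and SS + RSD + minocycline mice, which received both. The cortex libraries compared came, among AA mice, from 12 without RSD or drug, 3 with RSD, 1 with minocycline and 18 with both, and, among SS mice, from 8, 6, 4 and 14 in the same order. Hippocampus libraries came from the same mice except for 1 AA and 1 SS mouse, and 64 mice gave both tissues. Whether the tissue used for RNA had been flushed of blood is not given in the sources used here.

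Red cells are built around a membrane in which the anion exchanger of Slc4a1, known as band 3, trades bicarbonate for chloride and anchors the spectrin skeleton beneath it. The protein of Epb42 binds the inner side of band 3. Rhag encodes the Rh-associated glycoprotein, an ammonia channel that carries Rhd, the only mouse counterpart of the human Rh blood group genes, to the surface. Kel encodes the Kell blood group metallopeptidase and Ermap the Scianna blood group protein, a member of the butyrophilin-like family. These genes are transcribed in erythroblasts of the bone marrow and spleen, and their RNA persists in reticulocytes, the young red cells whose share of the blood rises in hemolytic anemia. Whole brain tissue holds blood vessels with such cells, and in bulk RNA fewer cells of a type and less RNA per cell cannot be told apart.

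Each cortex library held between 16295042 and 107713193 reads on genes, and each hippocampus library between 12869149 and 68731008. Levels are counts per 1000000 of these reads (CPM). Of 134 libraries with a known group, 4 formed pairs with identical counts, 1 pair per tissue (SS + minocycline mouse 9887 and AA + RSD + minocycline mouse 9877), and these were left out of all comparisons. Several other libraries stood against their labels in both tissues. AA mouse 5844 and AA + RSD + minocycline mouse 5853 had high, and SS + RSD + minocycline mouse 7078 low, Alas2, the erythroid enzyme that opens heme synthesis. Among the remaining mice Alas2 lay between 54 and 180 CPM in the cortex of 31 SS mice and between 2.61 and 20.6 CPM in that of 32 AA mice. The genotype comparisons were therefore also made without these 3 mice, although Alas2 is itself a red cell gene, so that a comparison without them is not independent of the choice. In AA + RSD mouse 9674 the tissues appeared exchanged, with 153 CPM of summed cortex markers in its cortex library against a median of 572 CPM in the others and 602 against 164 CPM in its hippocampus library. AA mouse 9631 had mouse beta-globin Hbb-bs at 37 CPM in the cortex, where no other library exceeded 0.224 CPM.

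The 100 bases of GRCm39 that lie directly upstream of the annotated start of each gene's reference transcript were read from the genome because all 6 hold a GATA hexamer, the core that erythroid GATA factors are known to recognise. They are shown 5′ to 3′ on the strand of the gene, with capitals marking AGATAA or TGATAA on either strand and, in Slc4a1, CCNCNCCC, a form of the CACCC box, which reads GGGTGGGG on the gene's strand.
Slc4a1: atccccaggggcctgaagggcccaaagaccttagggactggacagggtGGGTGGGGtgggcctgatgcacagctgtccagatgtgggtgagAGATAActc
Epb42: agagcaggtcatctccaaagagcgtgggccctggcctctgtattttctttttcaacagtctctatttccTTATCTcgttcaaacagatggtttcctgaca
Ermap: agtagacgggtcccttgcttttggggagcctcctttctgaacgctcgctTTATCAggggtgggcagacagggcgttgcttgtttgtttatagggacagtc
Rhag: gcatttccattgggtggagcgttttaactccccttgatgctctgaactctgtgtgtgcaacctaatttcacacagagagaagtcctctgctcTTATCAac
Rhd: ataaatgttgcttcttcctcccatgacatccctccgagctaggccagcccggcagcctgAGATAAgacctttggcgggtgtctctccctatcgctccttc
Kel: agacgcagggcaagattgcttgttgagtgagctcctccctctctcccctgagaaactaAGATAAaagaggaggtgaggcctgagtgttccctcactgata
The stretches lie at chr11:102256107-102256206 (minus strand, Slc4a1), chr2:120867554-120867653 (minus, Epb42), chr4:119047209-119047308 (minus, Ermap), chr17:41121917-41122016 (plus, Rhag), chr4:134591745-134591844 (plus, Rhd) and chr6:41681274-41681373 (minus, Kel). None of their bases is annotated as an exon of the gene itself, and exons of other genes were not checked there.

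The genes themselves lie at chr11:102239650-102257029 (Slc4a1, 20 exons in its reference transcript), chr2:120848372-120867553 (Epb42, 13 exons), chr4:119032654-119047208 (Ermap, 13 exons), chr17:41122017-41151645 (Rhag, 10 exons), chr4:134591845-134623487 (Rhd, 10 exons) and chr6:41663264-41681273 (Kel, 19 exons). The reference transcript of Slc4a1 starts inside the span of its gene. Each of the 6 genes had 1 GATA hexamer in the 300 bases upstream. The forms searched on both strands were AGATAA and AGATAG, and the same with another first letter, TGATAA and TGATAG. The hexamer began 9 bases from the start in Slc4a1, 31 in Epb42, 51 in Ermap, 8 in Rhag, 41 in Rhd and 42 in Kel. Of 21770 protein-coding genes, 31.2% had such a hexamer within 300 bases and 9.33% within 100 bases, and the shorter window was chosen after the positions were seen. CCNCNCCC occurred in Slc4a1 alone of the 6, at 52 bases, while 51.4% of all genes had it within 300 bases. Ermap, which carries the hexamer like the others, had a different pattern of RNA levels, described below. A match of letters is a description and not a binding site.

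Slc4a1 RNA was the most abundant of the 6 in SS mice and was far higher in SS mice than in AA mice in both tissues. In the cortex the 8 SS mice ranged from 4.45 to 16.9 CPM with a median of 11.2 CPM, and the 12 AA mice from 0.112 to 9.69 CPM with a median of 0.28 CPM. The highest AA value was mouse 5844, and without it no AA mouse exceeded 0.686 CPM, so that all 8 SS mice lay above all 11 AA mice. The log2 fold change was 3.26 (SE 0.59, edgeR quasi-likelihood test, Benjamini-Hochberg adjusted p = 0.000879) and 5.06 (adjusted p = 4.76e-16) without the 3 mice against their labels. In the hippocampus 7 SS mice had between 3.16 and 16.2 CPM (median 10.4) and 11 AA mice between 0.127 and 6.39 CPM (median 0.378), a log2 difference of 3.44 (SE 0.59, adjusted p = 0.000431), and mouse 5844 was again the highest AA mouse.

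The gap was present under RSD and under RSD with minocycline. Slc4a1 in the cortex of AA + RSD mice was 0.319, 0.371 and 0.544 CPM, and SS + RSD mice ranged from 9.42 to 27 CPM (median 14.3). These groups did not overlap (log2 fold change 5.22, SE 1.21, adjusted p = 0.0188). In the hippocampus AA + RSD mice had 0.311, 0.311 and 0.832 CPM against 7.6 to 20.4 CPM (median 11.5) in SS + RSD mice, again without overlap (4.65, SE 1.13, adjusted p = 0.0265). SS + RSD + minocycline mice had a cortex median of 7.62 CPM (0.508 to 16) and AA + RSD + minocycline mice one of 0.233 CPM (0.0528 to 4.16), with a log2 fold change of 3.92 (SE 0.50, adjusted p = 1.81e-07). The only SS mouse inside the AA range was mouse 7078. The same comparison in the hippocampus gave 3.67 (SE 0.47, adjusted p = 3.17e-07).

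Across all treatments, and without mice 5844, 5853 and 7078, every one of 31 SS cortex libraries had more Slc4a1 (4.25 to 27 CPM) than any of 32 AA libraries (0.0528 to 2.85 CPM). The same held in the hippocampus for 30 SS libraries (2.98 to 22.7 CPM) and 31 AA libraries (0.102 to 2.08 CPM). The upper end of the AA range in both tissues was mouse 10639, the only AA + minocycline mouse, at 2.85 CPM in the cortex and 2.08 CPM in the hippocampus. With 1 mouse that group could not be tested. AA + RSD + minocycline mouse 5898 was next in the cortex with 1.64 CPM. With all mice kept, 18 of 32 SS cortex and 22 of 31 SS hippocampus libraries lay above every AA library. Because the 3 mice were set aside by Alas2, the full separation without them is tied to that choice.

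**Figure D1:**
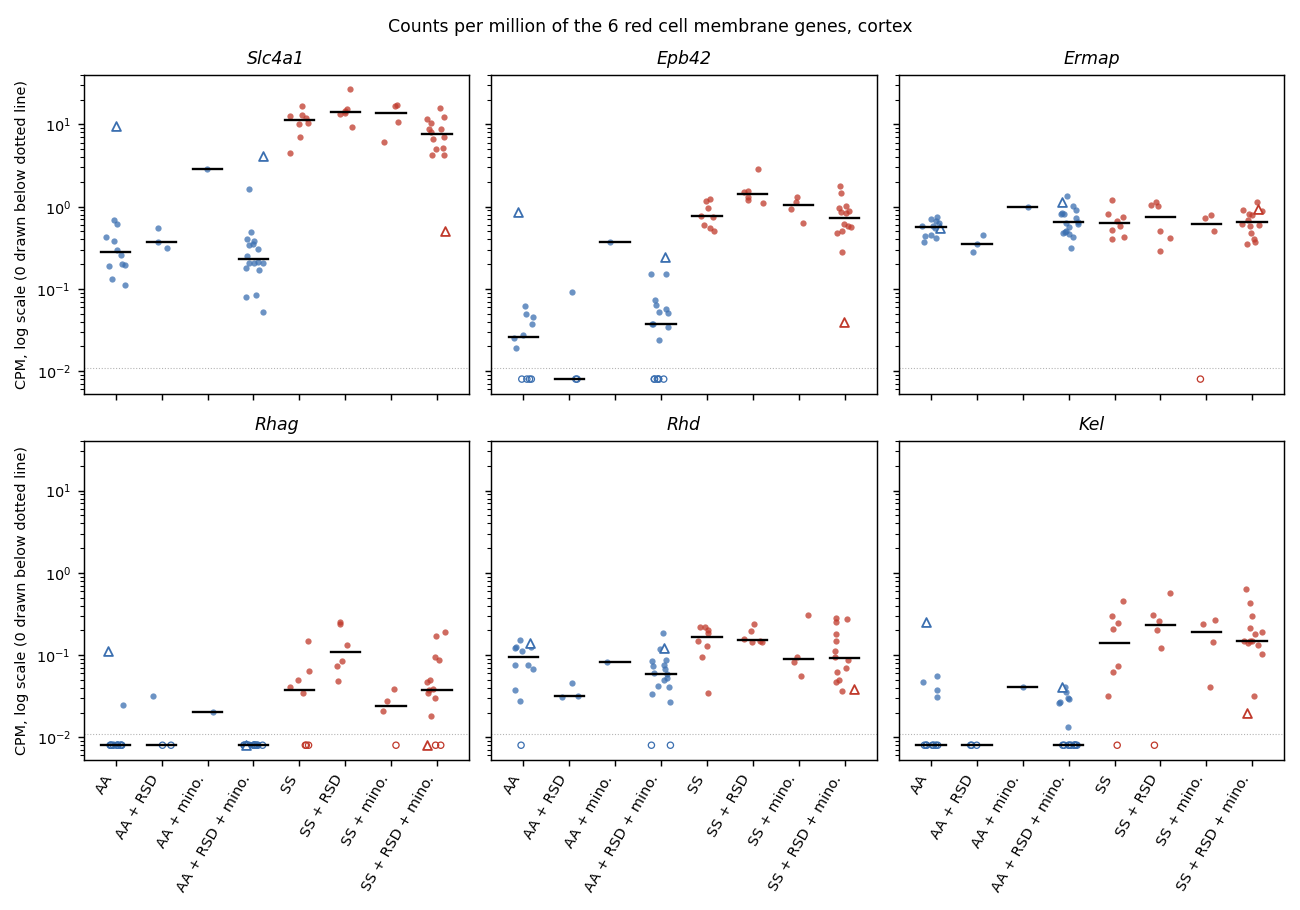
Levels of the 6 genes in the cortex, in CPM on a log scale, with 1 point per mouse by group (AA blue, SS red), black bars at the median, open circles below the dotted line for libraries at 0 and triangles for mice 5844, 5853 and 7078. Slc4a1 lies between 4.25 and 27 CPM in SS mice other than mouse 7078, while the ranges of Ermap overlap between the genotypes.

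**Figure D2:**
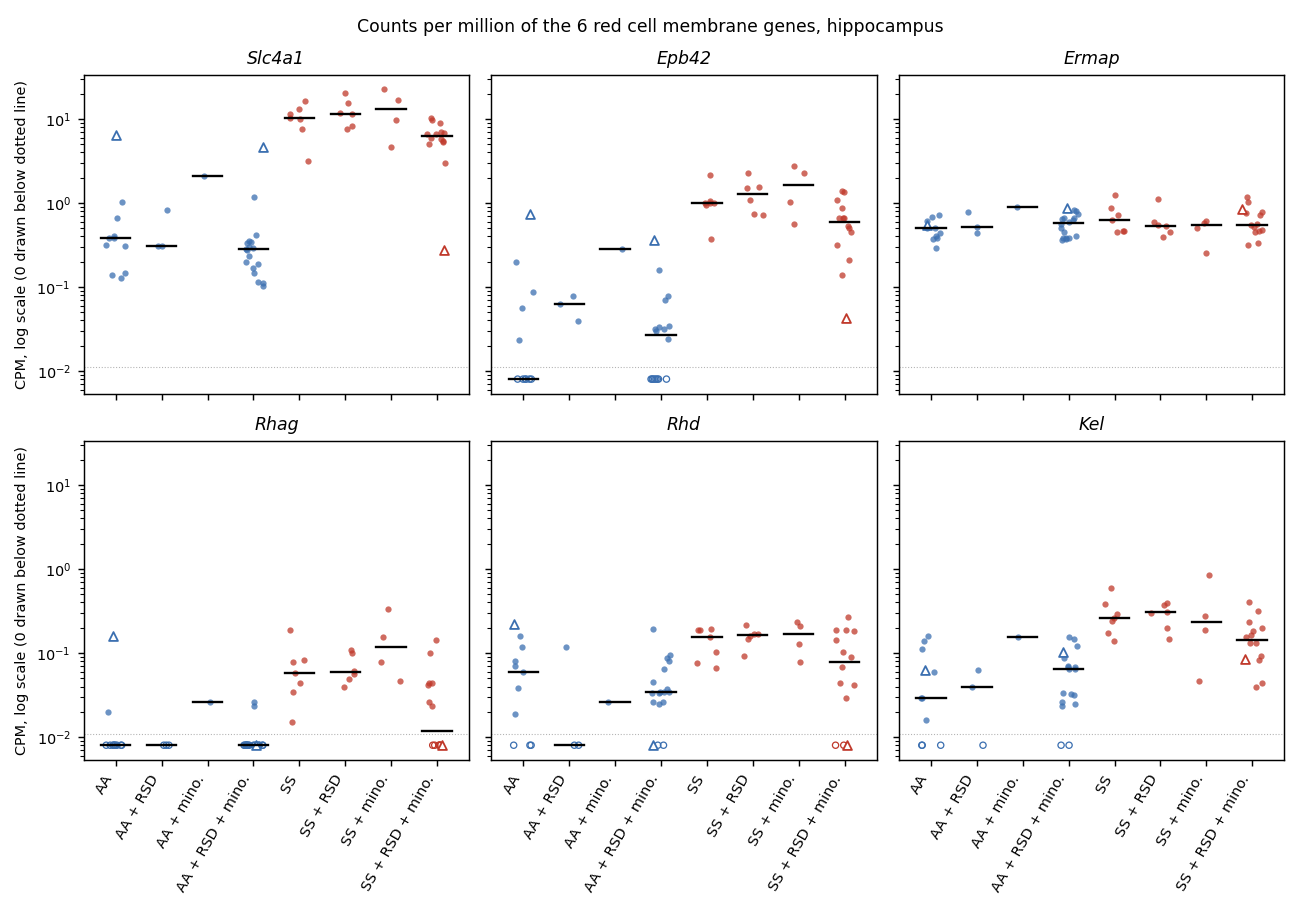
The same plot for the hippocampus, on the same kind of log scale with the same symbols. Slc4a1 lies between 2.98 and 22.7 CPM in SS mice other than mouse 7078, and Rhag is at 0 in 28 of 33 AA libraries.

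Epb42 followed the same pattern at lower counts. In the cortex 8 SS mice ranged from 0.505 to 1.25 CPM (median 0.763), and 12 AA mice from 0 to 0.863 CPM (median 0.0263), with mouse 5844 the highest and 4 AA mice at 0. The log2 fold change was 3.03 (SE 0.59, adjusted p = 0.00327). Hippocampus values were 0.368 to 2.14 CPM in SS mice (median 1) and 0 to 0.731 CPM in AA mice (median 0), and the log2 fold change was 3.36 (SE 0.67, adjusted p = 0.00487). Without mouse 5844 the SS and AA mice did not overlap in either tissue, and without all 3 mice the log2 fold changes were 4.82 and 4.57.

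For Epb42 after RSD, the 3 AA + RSD mice had 0, 0 and 0.0927 CPM in the cortex and SS + RSD mice 1.11 to 2.86 CPM (log2 fold change 5.42, SE 1.24, adjusted p = 0.0164). In the hippocampus AA + RSD mice had 0.0396, 0.0623 and 0.0777 CPM against 0.728 to 2.28 CPM, without overlap, but this difference did not pass the test (4.46, SE 1.30, adjusted p = 0.0919). SS + RSD + minocycline mice (cortex median 0.736 CPM, hippocampus 0.59 CPM) exceeded AA + RSD + minocycline mice (0.0376 and 0.0266 CPM), with log2 fold changes of 3.87 (SE 0.50, adjusted p = 2.7e-07) and 3.93 (SE 0.57, adjusted p = 4.48e-06). Over all treatments and without the 3 mice, 30 of 31 SS cortex libraries and 28 of 30 SS hippocampus libraries lay above every AA library. With all mice kept it was 17 of 32 and 18 of 31.

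Ermap was called in no genotype comparison. Its cortex level was 0.672 CPM ± 0.258 (SD, n = 8) in SS mice and 0.562 CPM ± 0.121 (SD, n = 12) in AA mice, which differed by 0.23 on the log2 scale (SE 0.29, adjusted p = 0.922). In the hippocampus the values were 0.694 CPM ± 0.293 (SD, n = 7) and 0.495 CPM ± 0.133 (SD, n = 11), a log2 fold change of 0.45 (SE 0.23, adjusted p = 1). After RSD, cortex values were 0.278, 0.352 and 0.455 CPM in AA + RSD mice and 0.289 to 1.14 CPM (median 0.756) in SS + RSD mice, 4 of 6 of them above every AA + RSD mouse (log2 fold change 1.00, SE 0.48, adjusted p = 0.949), and the hippocampus difference was 0.11 (SE 0.36, adjusted p = 1). Mice of the genotypes given both RSD and minocycline differed (SS minus AA) by -0.07 in the cortex (SE 0.22, adjusted p = 0.976) and by 0.15 in the hippocampus (SE 0.17, adjusted p = 0.983). No SS cortex library of 31 lay above the highest AA library, and the same was true of all but 4 of 30 in the hippocampus. Mice 5844, 5853 and 7078, which stood out in Slc4a1, had Ermap between 0.54 and 1.13 CPM. Of the exonic bases of Ermap, 7.07% overlap Gm70209 on the other strand.

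Rhag was nearly absent from AA mice and present at low counts in SS mice. In the cortex, 30 of 34 AA libraries and 7 of 32 SS libraries had no read on it, and the gene did not pass the filter on low counts there. All 18 AA + RSD + minocycline cortex libraries were at 0 in 683663559 reads on genes, while 14 SS + RSD + minocycline libraries held 35 counts, so that the pooled level was at least 13.1-fold higher (floor of 3 counts over the AA group). A fit without the filter called this difference (adjusted p = 0.000279). In the hippocampus Rhag was tested, but it passed the filter through SS libraries only, so that its being tested was tied to genotype. SS mice ranged from 0.0153 to 0.186 CPM (median 0.0582) and 9 of 11 AA mice were at 0, mouse 5844 being the highest with 0.159 CPM. The log2 fold change of SS against AA mice was 1.95 (SE 0.73, adjusted p = 0.915), and 3.64 (adjusted p = 0.00562) without the 3 mice. The latter result is tied to the choice of those mice by Alas2. SS + RSD + minocycline mice exceeded AA + RSD + minocycline mice by 2.53 (SE 0.67, adjusted p = 0.0209), although 7 of 14 SS libraries had no read, and DESeq2 did not call the difference (2.26, adjusted p = 0.354). All 3 AA + RSD hippocampus libraries were at 0 and all 6 SS + RSD libraries between 0.0398 and 0.109 CPM, at least 1.7-fold higher when pooled.

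Rhd, the partner of Rhag, was seen in both genotypes. Cortex levels were 0.0345 to 0.222 CPM in SS mice (median 0.167) and 0 to 0.154 CPM in AA mice (median 0.0935), which overlapped (log2 fold change 0.74, SE 0.42, adjusted p = 0.764). SS + RSD mice, at 0.143 to 0.238 CPM, lay above the AA + RSD mice at 0.0309, 0.032 and 0.0455 CPM, each a single count, without passing the test (2.17, SE 0.77, adjusted p = 0.466). SS + RSD + minocycline against AA + RSD + minocycline mice gave 0.89 (SE 0.33, adjusted p = 0.35). Over all mice but the 3 against their labels, the mean was 0.145 CPM ± 0.0777 (SD, n = 31) in SS and 0.0679 CPM ± 0.0445 (SD, n = 32) in AA cortex. In the hippocampus Rhd did not pass the filter on low counts, with means of 0.13 CPM ± 0.0708 (SD, n = 30) in SS and 0.0496 CPM ± 0.0481 (SD, n = 31) in AA mice. Of its exonic bases 13.2% overlap Tmem50a on the other strand.

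Kel was higher in SS mice in part of the comparisons. It passed the filter on low counts in both tissues through SS libraries only, so that its being tested was tied to genotype. In the hippocampus 7 SS mice had 0.138 to 0.602 CPM (median 0.263) and 11 AA mice 0 to 0.16 CPM (median 0.0294), and all but 1 of the SS mice exceeded the highest AA value (log2 fold change 2.20, SE 0.51, adjusted p = 0.0335). The call ended without the filter on low counts (adjusted p = 0.0523) and with the identical libraries kept (adjusted p = 0.086). It was also not made within either range of mouse numbers that held both genotypes, with differences of 2.06 in series A (adjusted p = 1) and 2.25 in series B (adjusted p = 0.31). The cortex held 0 to 0.448 CPM in SS mice (median 0.14) and 0 to 0.25 CPM in AA mice (median 0), with 7 of 12 AA mice at 0. That difference of 2.15 (SE 0.68) did not pass the test (adjusted p = 0.357) but did without the 3 mice (3.29, adjusted p = 0.00731). The 3 mice were set aside by Alas2, itself a red cell gene, so the latter result is not independent of the choice. SS + RSD + minocycline mice exceeded AA + RSD + minocycline mice by 3.53 in the cortex (SE 0.57, adjusted p = 6.26e-05) and by 1.42 in the hippocampus (SE 0.40, adjusted p = 0.0301), the latter with an adjusted p of 0.0867 once the share of reads outside genes was a term.

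For Kel after RSD, no AA + RSD cortex library had a read in 85605003 reads on genes, and 6 SS + RSD libraries held 64 counts, an at least 7.39-fold higher pooled level that did not pass the test (adjusted p = 0.0918). Hippocampus values were 0, 0.0396 and 0.0623 CPM in AA + RSD mice and 0.146 to 0.398 CPM in SS + RSD mice, without overlap (2.79, SE 0.94, adjusted p = 0.17). Of the exonic bases of Kel, 8.91% overlap Llcfc1 on the other strand.

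Counted together, 2 of 5 genes tested in the cortex were higher in SS than in AA mice (Slc4a1 and Epb42), where 0.214% of all genes tested were called in either direction. SS + RSD against AA + RSD mice gave the same 2 of 5 (0.493% of all genes), and SS + RSD + minocycline against AA + RSD + minocycline mice 3 of 5, with Kel added (0.624% of all genes). In the hippocampus the counts were 3 of 5 (Slc4a1, Epb42 and Kel, against 0.159% of all genes), 1 of 5 (Slc4a1, against 0.78%) and 4 of 5 (Slc4a1, Epb42, Kel and Rhag, against 2.74%). The medians over the 5 genes in SS against AA mice were 2.15 in the cortex and 2.20 in the hippocampus on the log2 scale, against -0.00 and 0.01 over all genes tested. No member was called lower in SS mice in any of these tests. Without mice 5844, 5853 and 7078 the counts were 3, 3 and 3 in the cortex, where 59, 114 and 181 of 22901 genes were called in either direction. For the hippocampus they were 4, 2 and 4, where 60, 151 and 676 of 23395 genes were called. As these mice were set aside by Alas2, a red cell gene, these counts are tied to that choice. Because the smallest group was 1 mouse, 1 library with enough reads let a gene pass the filter. Kel in both tissues, Rhd in the cortex and Rhag in the hippocampus passed through SS libraries only. Highest AA levels were 0.25 and 0.16 CPM for Kel, 0.188 CPM for Rhd and 0.159 CPM for Rhag. Their place among the 5 genes was therefore tied to genotype, which bears on the counts and medians above.

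**Figure D3:**
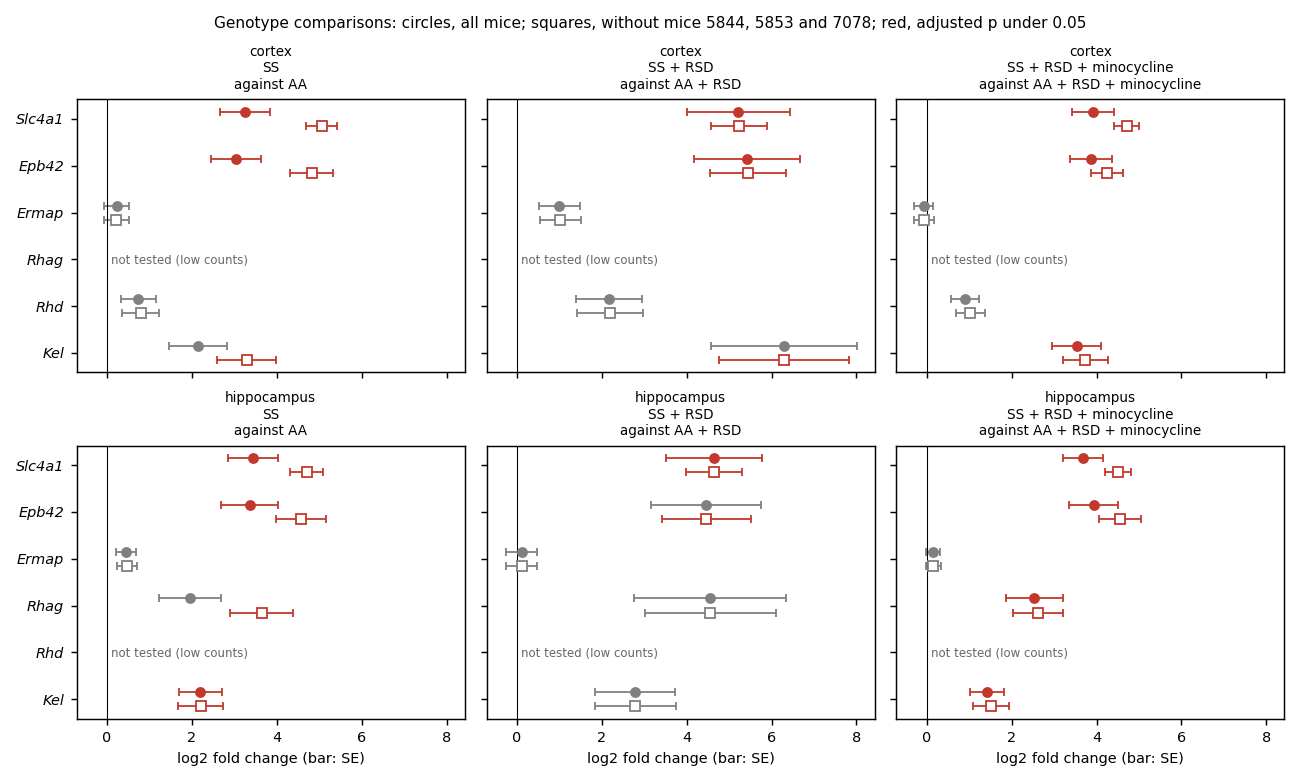
Log2 fold changes of SS over AA mice for each gene, with bars of 1 SE, for the 3 pairs of groups in each tissue, over all mice (circles) and without mice 5844, 5853 and 7078 (squares), with red marking an adjusted p under 0.05. Slc4a1 lies between 3.26 and 5.22 in all 6 panels and Ermap near 0 except after RSD in the cortex, where it was 1.00. The value drawn for Kel after RSD in the cortex comes from an AA + RSD group at 0 and is no measure of size.

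The calls after RSD rest on 3 AA + RSD mice. Leaving out any 1 of them ended the calls of both Slc4a1 and Epb42 in the cortex and that of Slc4a1 in the hippocampus, with log2 fold changes of Slc4a1 then between 5.08 and 5.47 in the former tissue and between 4.33 and 5.37 in the latter. Without mouse 9674, whose tissues appeared exchanged, 0 genes of the whole table were called in the cortex and 4 in the hippocampus by edgeR. A comparison of the genotype difference with and without RSD called none of the 6 genes (interaction for Slc4a1 1.96, SE 1.21, in the cortex and 1.20, SE 1.16, in the hippocampus, adjusted p = 1 in both, against 0.236% and 0.0474% of all genes called), nor did one for RSD with minocycline (0.67, SE 0.75, adjusted p = 0.996, and 0.23, SE 0.73, adjusted p = 1, against 0% of all genes in either tissue).

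Among SS mice, RSD alone gave no call among the 4 genes tested. Cortex Slc4a1 had a mean of 15.6 CPM ± 5.93 (SD, n = 6) in SS + RSD mice and 10.8 CPM ± 3.84 (SD, n = 8) in SS mice, a log2 fold change of 0.64 (SE 0.40, adjusted p = 0.279). Epb42 gave 1.07 (SE 0.41, adjusted p = 0.105), and the hippocampus 0.37 (SE 0.44, adjusted p = 0.658) for Slc4a1 and 0.38 (SE 0.52, adjusted p = 0.706) for Epb42. Of all genes tested, 2.57% in the cortex and 3.11% in the hippocampus were called. Most of the SS mice without RSD came from another range of mouse numbers, described below, than the SS + RSD mice. These differences are therefore not separate from that division. In AA mice, AA + RSD against AA gave -1.40 (SE 1.26) for cortex Slc4a1 but 0.39 (SE 0.64) without the 3 mice against their labels, and no member passed the test in either tissue (0.853% and 1.19% of all genes called).

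Slc4a1 and Epb42 were lower in the cortex of SS + RSD + minocycline mice than of SS + RSD mice. Slc4a1 had a mean of 7.81 CPM ± 3.99 (SD, n = 14) against 15.6 CPM ± 5.93 (SD, n = 6), with ranges of 0.508 to 16 and 9.42 to 27 CPM that overlapped (log2 fold change -1.11, SE 0.35, adjusted p = 0.0409). Epb42 had 0.779 CPM ± 0.452 (SD, n = 14) against 1.6 CPM ± 0.642 (SD, n = 6), also with overlap (-1.14, SE 0.36, adjusted p = 0.0426). These were 2 of 4 genes tested, where 8.85% of all genes were called. Without mouse 7078 they were -1.01 (adjusted p = 0.0255) and -1.04 (adjusted p = 0.029). The endothelial genes Cdh5 and Pecam1 were also called lower here, with 5 endothelial genes summing to 187 CPM (142 to 232) against 236 CPM (202 to 260), and their part in the result was not tested. In the hippocampus the differences of -1.04 (Slc4a1, SE 0.37, adjusted p = 0.079) and -1.05 (Epb42, SE 0.44, adjusted p = 0.129) did not pass, against 5.96% of all genes.

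This comparison coincides with a division among the mice. The mouse numbers in the labels fall into 3 ranges, whose meaning is not given in the sources used here: series A (5349 to 5400 and 9615 to 9674), series B (5645 to 5900 and 9810 to 9910) and series C (7037 to 7121 and 10633 to 10639). Every mouse exposed to RSD alone belongs to series A, whereas those that received RSD together with minocycline belong to B or C, so that minocycline and series cannot be told apart between these groups. Most SS and AA mice without RSD or drug belong to series B. RSD alone is thus also largely joined to series in the comparisons with them. With series as a term of the model, the log2 fold changes were -0.40 for Slc4a1 and -0.13 for Epb42 in the cortex (adjusted p = 1 for both), and 0 genes of the table were called by edgeR. Among SS mice the only ones of series A outside the SS + RSD group were SS mice 5349 and 5353. The term for that series rests on them, so this fit cannot decide between minocycline and series. Minocycline without RSD called no gene of the whole table among SS mice in either tissue (0%). Slc4a1 in the cortex was 6.2, 10.6, 16.9 and 17.1 CPM in the 4 SS + minocycline mice, inside or just above the range of SS mice (log2 fold change 0.30, SE 0.45, adjusted p = 0.911). In the hippocampus it was 4.68, 9.65, 16.9 and 22.7 CPM (0.49, SE 0.49, adjusted p = 0.981). In both tissues the lower values came from series C mice 7108 and 7121 and the higher from series B mice 9888 and 9889. Cortex Alas2 was likewise 62.7 and 67.2 CPM in the former and 141 and 180 CPM in the latter. SS + RSD + minocycline against SS + minocycline mice also called no gene in either tissue (0%), with -0.77 (SE 0.40, adjusted p = 0.979) for Slc4a1 in the cortex and -1.16 (SE 0.42, adjusted p = 0.997) in the hippocampus. AA + RSD + minocycline against AA + RSD mice gave no call among the members (3.6% and 2.67% of all genes).

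Hippocampus and cortex were compared within each genotype. In SS mice the hippocampus differed from the cortex by -0.17 for Slc4a1 (SE 0.34, adjusted p = 0.758), and 0 of 6 genes were called where 37.4% of all genes were. With each mouse as a block, the pairing that the mouse numbers give, the difference was -0.21 and passed the test (adjusted p = 0.0337). Kel was higher in the hippocampus of AA mice, 0.0604 CPM ± 0.0512 (SD, n = 33), than in their cortex, 0.0207 CPM ± 0.0445 (SD, n = 34), with a log2 fold change of 2.11 (SE 0.67, adjusted p = 0.0108), the only 1 of 6 genes called, against 25% of all genes. These means pool all AA mice. The fold change instead gives equal weight to the AA, AA + RSD and AA + RSD + minocycline groups. Among them the 3 AA + RSD cortex libraries, which include mouse 9674, were all at 0. Without AA + RSD mouse 9643 the difference in Kel was 1.91 and did not pass (adjusted p = 0.151). In SS mice it was 0.43 (SE 0.33, adjusted p = 0.337), and the difference between the genotypes in this respect was not significant (-1.67, SE 0.72, adjusted p = 0.72, against 0.0207% of all genes). The fit for AA mice gave no usable estimate for Rhag, which had 7 counts in all AA cortex libraries and 9 in all AA hippocampus libraries.

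Slc4a1 varied between mice in the same way in both tissues. Over 31 SS mice, cortex and hippocampus log2 CPM correlated with Pearson's r = 0.96 and Spearman's rho = 0.91 (permutation p = 1e-05 for each, the smallest that 100000 permutations can give, adjusted p = 4e-05 and 2.3e-05 over 16 relations). Without mouse 7078 r was 0.90, and without the 2 mice farthest from the median 0.91. Within number series it was 0.84 in 8 mice of series A (exact permutation p = 0.0038, adjusted p = 0.031) and 0.89 in 22 mice of series B and C without mouse 7078. Epb42 gave r = 0.76 between tissues (adjusted p = 4e-05) and, in 8 mice of series A, 0.45 (exact permutation p = 0.29), which did not pass the test. Ermap had r = 0.23 (permutation p = 0.21, adjusted p = 0.24), and Rhag 0.13 (permutation p = 0.49). Rhd had r = 0.53 (permutation p = 0.0022, adjusted p = 0.0036), with 0.13 in the 8 mice of series A (exact permutation p = 0.78) and 0.41 in series B and C (permutation p = 0.055, adjusted p = 0.088). Kel had r = 0.35 (permutation p = 0.055, adjusted p = 0.074) and rho = 0.42 (adjusted p = 0.027), with r = 0.05 in series A (exact permutation p = 0.9) and 0.38 in series B and C (permutation p = 0.083, adjusted p = 0.12).

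Within the tissues, Epb42 moved with Slc4a1 and Ermap did not. Over SS mice Epb42 and Slc4a1 had r = 0.92 and rho = 0.85 in the cortex (n = 32) and r = 0.85 and rho = 0.89 in the hippocampus (n = 31, permutation p = 1e-05 for each, adjusted p = 4e-05 for each r and 2.3e-05 for each rho). Without the 2 farthest mice r was 0.84 and 0.78. In the 8 mice of series A the relation held in the hippocampus (r = 0.93, exact permutation p = 0.0012, adjusted p = 0.019) but not in the cortex (r = 0.69, rho = 0.07, exact permutation p = 0.082). It held in both tissues of series B and C (r = 0.82 and 0.75). Rhd gave r = 0.65 and 0.66 and Kel 0.54 and 0.60 over all SS mice, and neither passed the test within series A. Ermap gave -0.13 (permutation p = 0.4) and -0.24 (permutation p = 0.2). Rhag was related to Slc4a1 in the hippocampus (r = 0.64, adjusted p = 0.00025), while the cortex relation did not pass the test (r = 0.35, permutation p = 0.05, adjusted p = 0.072). Within series the hippocampus relation was 0.39 in series A (exact permutation p = 0.33) and 0.77 in series B and C (adjusted p = 0.00016). Many Rhag libraries were at 0, and a difference between the tissues was not tested.

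**Figure D4:**
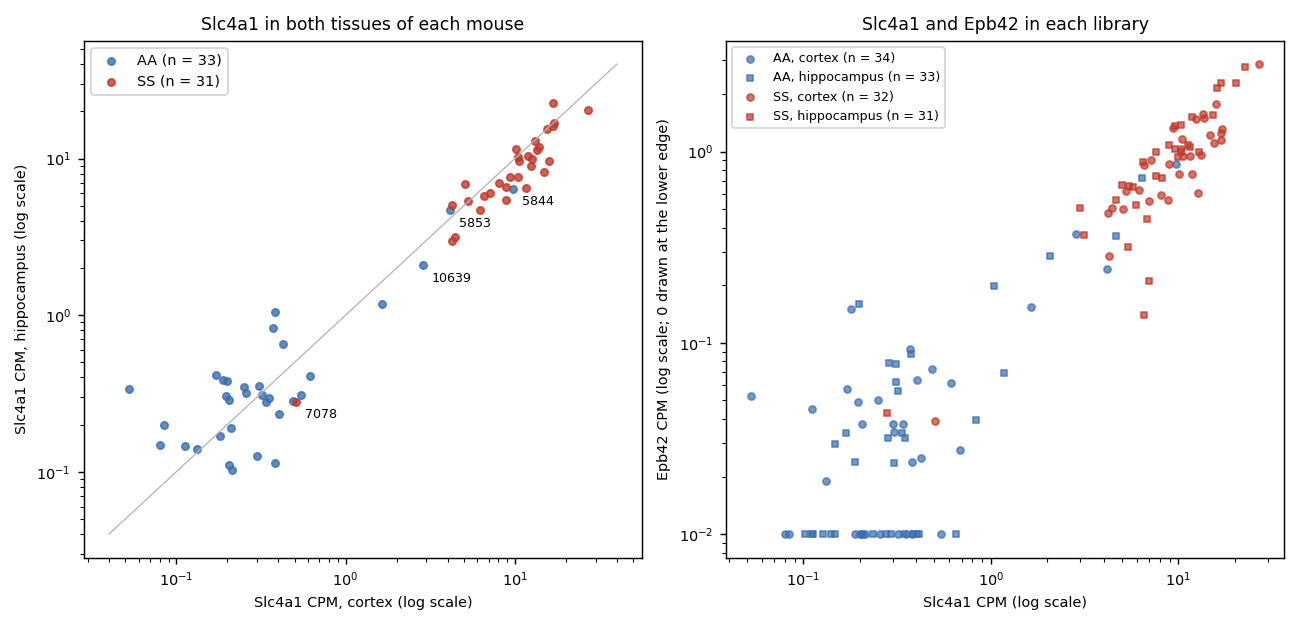
Left, Slc4a1 CPM in the cortex and hippocampus of each mouse on log scales, AA blue and SS red, with a grey line of equality and the 3 mice against their labels and AA + minocycline mouse 10639 numbered. Right, Epb42 against Slc4a1 CPM in each library, where SS libraries had 9.64 Epb42 counts per 100 Slc4a1 counts in the cortex and 10.9 in the hippocampus when pooled.

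The proportions of the transcripts could be read from the counts. For every 100 counts of Slc4a1, SS cortex libraries held 9.64 of Epb42, 1.92 of Kel, 1.37 of Rhd and 0.648 of Rhag when pooled, and SS hippocampus libraries 10.9, 2.65, 1.45 and 0.688. Epb42 ranged from 4.76 to 14.1 per 100 over cortex libraries and from 2.13 to 17.1 over hippocampus libraries. In AA mice without 5844 and 5853 the pooled proportion of Epb42 was 11.4 and 11, close to that of SS mice, while Rhd stood at 16.9 in the cortex and Kel at 16.2 in the hippocampus. Per kilobase of exon in SS mice without mouse 7078, cortex levels were 2.24 CPM per kb for Slc4a1 ± 1.02 (SD, n = 31), 0.185 for Epb42, 0.113 for Ermap, 0.086 for Rhd, 0.0735 for Kel and 0.0282 for Rhag. Slc4a1 exceeded Epb42 in 31 of 31 libraries and Epb42 exceeded Ermap in 25, whereas Ermap over Rhd and Rhd over Kel each held in only 19 of 31, within their spread. In the hippocampus the order was the same but for Kel (0.0885) and Rhd (0.0773), with Kel above Rhd in 18 of 30 libraries.

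Genes of the membrane skeleton, to which band 3 is tied, are also used by neurons, and the 12 genes listed summed to a median of 1991 CPM in all SS and 2010 CPM in all AA cortex libraries. The median log2 fold change over them was 0.07 in SS against AA cortex. Epb41, a linker of the skeleton and actin with a mean of 80.1 CPM in SS cortex, was higher in the hippocampus of SS + RSD + minocycline than of AA + RSD + minocycline mice (0.56, SE 0.13, adjusted p = 0.00642). Of 20 other surface proteins of the red cell, 19 were tested, with a median of 0.20 in SS against AA cortex. Slc2a1, the glucose transporter that red cells share with brain endothelium, was called in mice given RSD with minocycline, with 0.54 (SE 0.10, adjusted p = 0.00091) in the cortex and 0.45 (SE 0.08, adjusted p = 0.000256) in the hippocampus.

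Of 10 erythroid genes listed outside the membrane, 9 are in the tables and 7 were tested in the cortex, where 4 were called higher in SS than in AA mice (Alas2, Trim10, Tspo2 and Nfe2). Alas2, Trim10, a ubiquitin ligase of erythroblasts, and Tspo2, an erythroid cholesterol-binding protein, were called in all 3 genotype comparisons of both tissues. In SS against AA cortex they differed by 2.90 (SE 0.51), 3.23 (SE 0.60) and 2.99 (SE 0.53), with adjusted p = 0.000634, 0.00127 and 0.000634. Of the erythroid transcription factors, Nfe2 had a mean of 0.162 CPM in SS cortex and 0.0311 CPM in AA cortex without the 3 mice and differed by 2.77 (SE 0.55, adjusted p = 0.00445) in SS against AA mice. Gata1 had 0.0501 and 0.00669 CPM, Klf1 0.168 and 0.148 CPM and Tal1 2.04 and 1.47 CPM in SS and AA cortex, and none of them was called in a genotype comparison in which it was tested (Gata1 was not tested in the hippocampus).

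Markers of other blood and brain cells moved in part with genotype. The 7 neutrophil genes summed to a median of 0.899 CPM (0.117 to 7.08) in all SS and 0.279 CPM (0.0815 to 1.38) in all AA cortex libraries, with none at 0 throughout. S100a8 and S100a9 were called in SS + RSD + minocycline against AA + RSD + minocycline mice in both tissues, and none of the list in SS against AA mice. The 5 lymphocyte genes summed to 1.35 CPM (0.614 to 2.29) and 0.583 CPM (0.286 to 1.36), and 3 of them were called in the cortex of mice given RSD with minocycline. The 5 endothelial genes summed to 215 CPM (142 to 260) in SS and 160 CPM (57.5 to 227) in AA cortex, with Kdr called in SS against AA mice in both tissues. The 5 megakaryocyte and platelet genes, at 3.41 CPM (1.58 to 4.91) against 2.72 CPM (1.93 to 3.46), gave no call in the genotype comparisons. Choroid plexus genes reached 5176 CPM in the cortex library of mouse 9674 against a median of 12.5 CPM over AA mice, and 4 of 5 were called lower in SS + RSD than AA + RSD cortex. The part of these cells in the results on the 6 genes was not tested.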

How the data were processed

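The authors sequenced strand-specific libraries of polyadenylated RNA, aligned reads to GRCm39 with STAR and deposited raw counts per GENCODE gene for each tissue; versions are not given in the sources used here. Lines that name no gene (in the cortex unmapped reads 12.4%, several places 4.98%, outside genes 8.25%, several genes 1.25%) were kept out of library sizes, and 3 columns that could not be tied to a library by name, and 1 library whose labels leave its tissue unclear, were not used. In R 4.3.3, edgeR 4.0.16 was run on the counts as deposited: filterByExpr (minimum count 10, minimum total count 15), TMM scaling and the quasi-likelihood test, two-sided, with Benjamini-Hochberg adjusted p under 0.05 called. Comparisons within a genotype used a model of its groups in a tissue, as the study's methods describe, and genotype comparisons a model of all groups. Tissues were compared in 1 model of both, and with the mouse as a block, since equal mouse numbers mark 1 animal. Within a tissue replicates are separate mice, so p-values measure the spread between mice. The main fit between tissues, without the block, took both libraries of a mouse as independent. DESeq2 1.42.0 and other settings served as alternatives. On simulated counts with 200 genes changed 4-fold, edgeR recovered 94.5% for SS against AA (8 against 12 libraries) and 88% for AA + RSD against AA (3 against 12). The changed genes were drawn from those expected to have more than 10 reads at the median depth. Rhag, Rhd and Kel averaged fewer, so these rates do not cover them. SS + RSD against AA + RSD was not simulated. Text names all 6 members, and listed genes where called in SS against AA or in SS + RSD + minocycline against AA + RSD + minocycline mice, except that results on some listed genes are not reported here. Members and lists were chosen with earlier results of these data known. Correlations used log2 CPM (TMM scaling, prior count 2) and two-sided permutation tests. Reads at several places were not assigned to a gene. Because GATA hexamers were first searched in 300 bases, the 100-base window was added after seeing the data, as were the interaction of genotype and tissue, the correlations within number series and the list counts without 3 mice.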

Additional observations from a re-analysis of the deposited data

Results flagged for a closer look

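Among 36 groups of 4 to 10 mice, 7 had a highest mouse set apart from the nearest other by Dixon's test, which chance gives in about 5% of groups. That rate assumes normal values and separate groups. Here the test used CPM, some of it from few counts, and the groups share mice, so 7 of 36 cannot be set against it directly. SS + RSD mouse 9621 accounted for 3 of the 7: cortex Slc4a1 at 27 CPM (nearest other mouse 15.5), cortex Epb42 at 2.86 CPM (1.57) and hippocampus Ermap at 1.11 CPM (0.597). Its hippocampus Slc4a1, 20.4 CPM, was also the highest of its group.

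The others were single values. Rhag in SS mice stood apart at 0.148 CPM in the cortex of mouse 9848 (nearest 0.0631) and at 0.186 CPM in the hippocampus of mouse 9822 (nearest 0.0821), which rest on few counts. Rhd in the cortex of SS + minocycline mouse 9889 was 0.309 CPM (nearest 0.0958). Epb42 in the hippocampus of SS mouse 5349 was 2.14 CPM (nearest 1.06).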

How the results depend on the processing

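Counts of members called were within 1.5 times of the first value in 285 of 312 alternative fits. Log2 fold changes kept direction and side of the threshold in 633 of 700, and no setting reversed a called change. Most of the 25 comparisons called no member in the main fit, so much of the agreement in counts is 0 matching 0. The changed counts fell mostly in comparisons that had a call. Among mice of number series A, SS against AA called 1 of 4 members tested in the hippocampus (Slc4a1). Among those of series B it called 1 of 4 in the cortex (Slc4a1) and 0 of 4 in the hippocampus. In a model of only the groups compared fewer genes passed the filter, so that a lower count can mean members not tested. It called 1 of 3 members tested in SS + RSD against AA + RSD cortex and in SS against AA hippocampus. The same held in SS + RSD against SS cortex (Epb42 1.03, adjusted p = 0.0166). In SS + RSD + minocycline against AA + RSD + minocycline mice it called 1 of 2 in either tissue. It called 2 of 3 in SS + RSD against AA + RSD hippocampus. In SS + RSD + minocycline against SS + RSD cortex, and in hippocampus against cortex of AA mice, it called 0 of 3. Leaving out 1 AA + RSD mouse gave 0 to 0 members in SS + RSD against AA + RSD mice of either tissue, and 0 to 1 between tissues of AA mice. DESeq2, and the fit without mice 5844, 5853 and 7078, called 2 of 5 members tested in SS + RSD against AA + RSD hippocampus. For most of these fits the share of all genes called is not given here. The calls of SS + RSD + minocycline against SS + RSD cortex fell to 0 without the filter, with number series or the share of reads outside genes as a term, and with identical libraries kept. The cause was not tested.

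Signs turned only for changes that were not called. For Slc4a1, AA + RSD against AA gave 0.24 with series as a term, 0.39 without the 3 mice and 0.44 by DESeq2 in the cortex, and 0.37 and 0.43 for the last 2 in the hippocampus. AA + RSD + minocycline against AA + RSD gave -1.69, -0.40 and -0.44 for cortex and -0.86, -0.74 and -0.77 for hippocampus, where leaving out 1 AA + RSD mouse gave -0.24 to 0.74. Without the 3 mice the interactions were -0.35 (RSD + minocycline, cortex), -0.06 (RSD, hippocampus) and -0.20 (RSD + minocycline, hippocampus). SS + minocycline against SS cortex was -0.01 with identical libraries kept. For Epb42 in the hippocampus, SS + RSD against SS was -0.24 with series as a term and -0.21 in series A, and SS + RSD + minocycline against SS + RSD 0.07 with series. Ermap in SS + RSD against AA + RSD hippocampus ranged from -0.08 to 0.35 when 1 AA + RSD mouse was left out. Slc4a1 between tissues of AA mice was 0.13 without the 3 mice, -0.31 to 0.14 when 1 mouse was left out and 0.07 with the replicate block. The block on the mouse called 1 member in SS mice (Slc4a1 -0.21) and changed no other call.

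Counts over all genes were less stable. SS + RSD against AA + RSD called 113 genes in the cortex and 0 without mouse 9674 (181 and 4 in the hippocampus). SS + RSD against SS called 511, and 0 to 3348 over settings, and SS + RSD + minocycline against SS + RSD 1762, and 0 to 2705, with 0 in both when series was a term. SS against AA called 49 (14 in series A, 265 in series B) in the cortex and 37 (10 to 60) in the hippocampus. Low counts limit Rhag, Rhd and Kel in AA mice, where Rhag had no read in 30 of 34 cortex libraries.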

Other observations

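Genes whose levels followed the members most closely over SS libraries were listed by Spearman's rho of log2 CPM, as a description with no test, since the libraries share depth and treatment groups. In the cortex (32 libraries, 14669 genes) the nearest to Slc4a1 were Alas2 (rho 0.918), Isg20 (0.857), Fam46c (0.852), Rsad2 (0.844) and Il16 (0.84). In the hippocampus (31 libraries, 14695 genes) they were Fam46c (0.944), Alas2 (0.888), Rsad2 (0.821), Ltbp1 (0.821) and Ube2l6 (0.821). Alas2, Fam46c and Rsad2 were thus on both lists. Epb42 was nearest to Alas2 in the cortex (0.83) and to Fam46c in the hippocampus (0.894), and Kel to Tpm4 (0.762) and Alas2 (0.803).

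Ermap had other neighbours. The nearest in the cortex were Reln (0.725), Adam12 (0.72) and Tll1 (0.698), and in the hippocampus Zfp831 (0.73), Fbxl21 (0.711) and Synj1 (0.696), none of which was among the neighbours of Slc4a1 or Epb42. Rhd was nearest to Cd24a (0.79) in the cortex and Crip1 (0.784) in the hippocampus.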
